A study of Homo sapiens with 12 samples.

Results

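The 51 genes described here act in S phase, when DNA is copied, or in mitosis, when the copies are separated. They are a list of cell cycle genes: 18 of S phase and 33 of mitosis. Each was represented by the probe set of highest mean signal among those that the array annotation gave to that gene alone. All 51 were among the 8124 genes bright enough to be tested, of 11963 genes with such a probe set. The mean signal over the 12 arrays had to reach 36.7, which left out the dimmest 40% of probe sets. Signals are linear MAS5 intensities in arbitrary units, and a change or difference is one of log2(signal + 16) unless stated. The study looked for genes that answer to PAX3-FKHR, a fusion transcription factor of alveolar rhabdomyosarcoma, in RD cells, a line from the embryonal form, which does not carry it. The 4 groups, with 3 Affymetrix human expression arrays each, were cells transduced with PAX3-FKHR-ER and given 30 nM 4-hydroxytamoxifen (4-OHT) for 24 h, the same cells without 4-OHT, cells transduced with the empty vector pK1 and given the same 4-OHT, and pK1 cells without it. In PAX3-FKHR-ER the fusion carries the hormone-binding domain of an estrogen receptor and is switched on by 4-OHT, and pK1 with 4-OHT carries the effect of the drug alone. All cells grew in DMEM with 10% FBS. The design text counts 3 transduced populations for each construct, but the labels do not say that a replicate number marks a population, so p-values measure the spread between these samples, whatever its source.

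S phase genes are switched on at the end of G1, when the retinoblastoma protein releases E2F factors bound at their promoters. Mitotic genes come later. At a short element called the CHR, complexes of MuvB with B-MYB (MYBL2) and then FOXM1 take over from the repressive DREAM complex. Both sets fall silent in cells that leave the cycle, as myoblasts do when they differentiate, and both are therefore used as readouts of proliferation in tumours of the muscle lineage. In bulk RNA, fewer cycling cells and less RNA per cell cannot be told apart, and signals with a like median on every array (50.4 to 62.8) cannot show a change in total RNA per cell.

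The promoters of the 2 sets differed in these elements. Of the 51 members, 42 matched a promoter of RefSeq's table for GRCh38.p14, which gives 250 bases before to 50 after each start. An E2F site was searched as TTCCCGC, as well as TTGGCGC, then also TTCGCGC and finally TTGCCGC, the CHR as TTTGAA and as TTTAAA, and the CCAAT box as CCAAT, on both strands. An E2F match stood in 12 of 16 S phase promoters (75.0%) and 7 of 26 mitosis promoters (26.9%), against 21.0% of the 6729 tested genes with a promoter in the table. A CHR match stood in 12.5% of S phase and 80.8% of mitosis promoters, against 15.8% of tested genes. CCAAT boxes were found in 68.8% of S phase and 73.1% of mitosis promoters, against 38.1%. A match is a description of letters and not a bound site. The 200 bases before the start follow for 4 members on which the results turn, with matches in capitals: MCM6, the S phase member highest with 4-OHT in pK1 cells, PLK1, the member that varied most, CCNB2, the mitosis member highest with 4-OHT in PAX3-FKHR-ER cells, and GPSM2, the lowest there.
MCM6: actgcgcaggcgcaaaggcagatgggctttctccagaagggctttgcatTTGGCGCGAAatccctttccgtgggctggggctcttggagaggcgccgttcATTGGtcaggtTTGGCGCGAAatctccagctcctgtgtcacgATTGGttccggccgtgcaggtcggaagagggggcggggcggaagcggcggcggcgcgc
PLK1: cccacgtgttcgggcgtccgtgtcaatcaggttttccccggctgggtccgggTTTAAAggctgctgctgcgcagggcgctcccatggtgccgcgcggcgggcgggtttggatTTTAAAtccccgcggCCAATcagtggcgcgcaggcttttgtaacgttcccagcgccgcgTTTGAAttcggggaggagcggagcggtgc
CCNB2: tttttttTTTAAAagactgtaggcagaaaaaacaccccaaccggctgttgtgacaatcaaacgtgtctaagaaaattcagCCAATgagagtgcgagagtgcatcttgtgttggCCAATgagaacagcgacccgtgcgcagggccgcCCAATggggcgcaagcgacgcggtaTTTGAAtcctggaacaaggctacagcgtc
GPSM2: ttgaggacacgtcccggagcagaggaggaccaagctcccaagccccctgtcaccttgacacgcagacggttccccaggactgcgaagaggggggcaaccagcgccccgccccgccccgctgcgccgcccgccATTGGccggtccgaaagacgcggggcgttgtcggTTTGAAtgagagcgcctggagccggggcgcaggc
The stretch of MCM6 is chr2:135876444-135876643 on the minus strand, that of PLK1 chr16:23678689-23678888, that of CCNB2 chr15:59104946-59105145 and that of GPSM2 chr1:108876785-108876984, these 3 on the plus strand. MCM6 held E2F matches on both strands that overlap in each of its 10-letter capital runs, and the single ATTGG runs are CCAAT boxes on the other strand. PLK1 held CHR matches that begin 148, 88 and 29 bases before the start, CCNB2 at 193 and 29, and GPSM2 a single CHR match 34 bases before the start, below a CCAAT box at 68.

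The 4 arrays of replicate 1 stood apart and are given separately where they touch a result. The array's 27 poly-A controls, for RNA added to a sample before it is labelled, had a median signal of 2.33 to 6.17 on these arrays and 92.8 to 251 on the other 8. Over probe sets, the log2 signals of the replicate 1 arrays correlated at 0.957 to 0.982 with each other and at 0.815 to 0.869 with the rest. FOXO1 (FKHR), part of the construct, read 78.3 and 83.9 with 4-OHT and 146 and 124 without it on PAX3-FKHR-ER replicates 2 and 3, all above the 36.1 to 52.1 of pK1 replicates 2 and 3. On replicate 1 it read 138 with and 142 without 4-OHT under the label PAX3-FKHR-ER, against 121 with and 214 without under pK1, so those labels could not be checked this way and "PAX3-FKHR-ER" means the label there. The cells' identity was checked on 9 myogenic markers, of which 6 passed the signal filter, with MYOD1 between 197 and 2098, while MYF5, CHRNG and PAX7 did not. None of 3 epithelial markers passed it, and 1 of 2 leukocyte and 1 of 3 endothelial markers did. These were CD3E at 17.0 to 96.8 (median 58.9) and PECAM1 at 8.08 to 84.3 (median 55.9). PTPRC (CD45) read 0.704 to 23.5 and CDH5 (VE-cadherin) 0.870 to 4.03.

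After 4-OHT in PAX3-FKHR-ER cells, no S phase or mitotic member passed the test, and the medians of both classes lay near 0. The median log2 change was -0.02 over the 18 S phase members, 9 above and 9 below 0, and 0.06 over the 33 mitosis members, 24 above and 9 below, beside -0.02 over all 8124 tested genes, of which 45.9% were above 0. No member passed the adjusted threshold of 0.05 in limma, and 0% of all 13329 tested probe sets did. At an unadjusted p under 0.05 there was 1 member, GPSM2, which is 1.96% of members, against 0.465% of probe sets. With the pairs of arrays as a block GPSM2 was again the 1 such member, against 6.71% of probe sets. The other 50 changes lay between -0.21 and 0.26 on the log2 scale. Within the single pairs of arrays that share a number, the S phase medians were -0.04, -0.01 and 0.05 and the mitosis medians -0.02, 0.12 and 0.01, so neither class had 1 sign in every pair. The plot of changes by pair shows both classes scattered about 0 in both constructs.

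**Figure D1:**
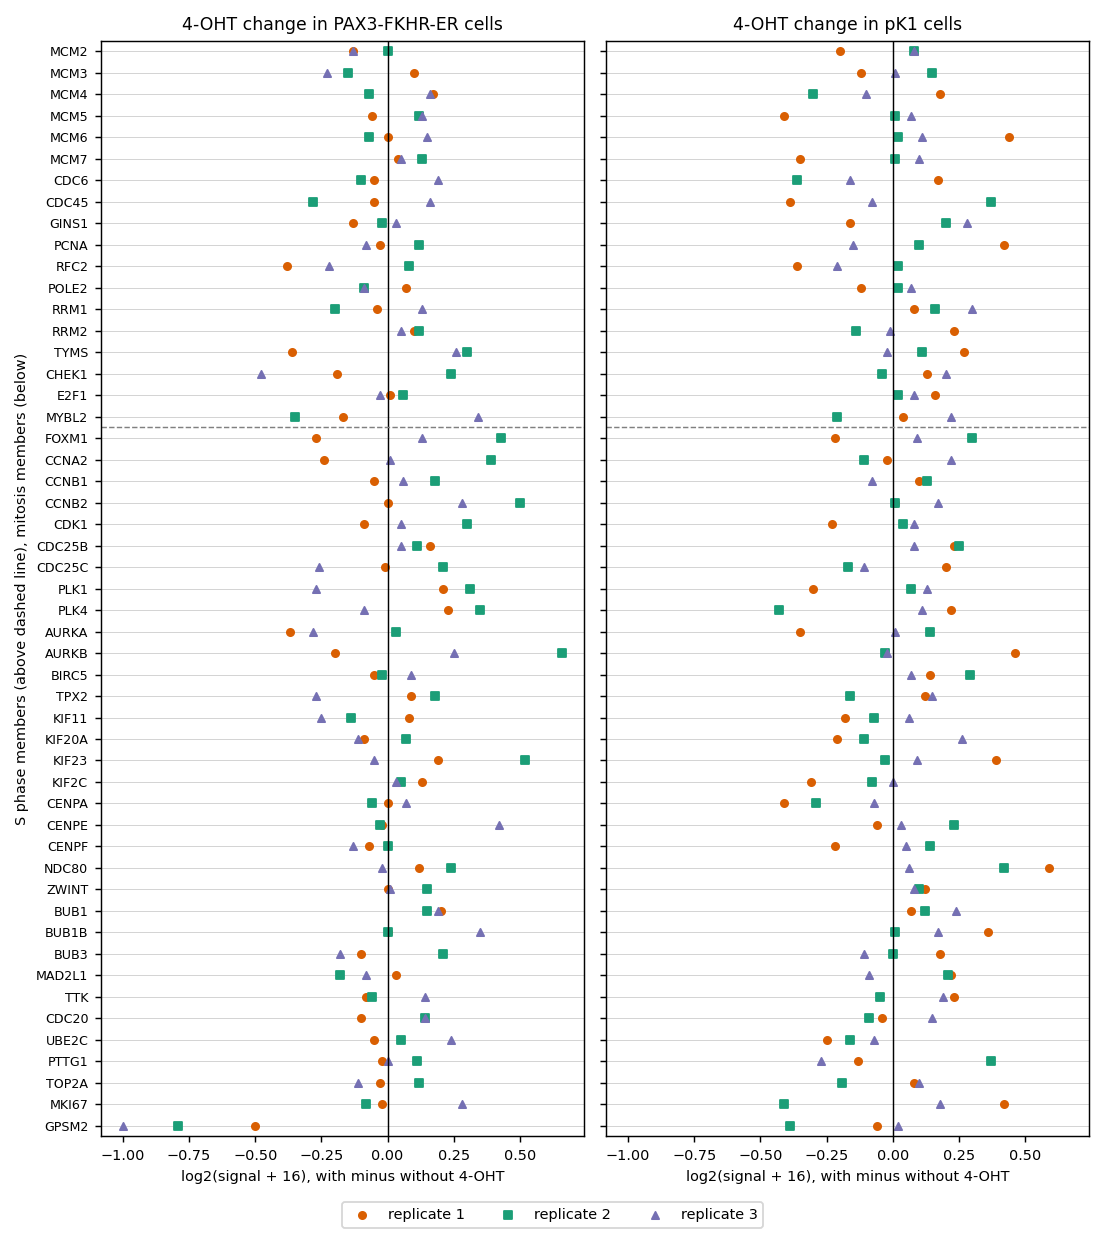
Change of each of the 51 members with 4-OHT, with minus without, on the log2(signal + 16) scale, in PAX3-FKHR-ER cells (left) and pK1 cells (right). Each point is 1 pair of arrays sharing a construct and a replicate number; GPSM2, at the bottom, lies at -0.50, -0.79 and -1.0 in PAX3-FKHR-ER cells, and no other member has a pair beyond 0.66 either way there.

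These data bounded the size of a missed change. In the fit that treats each pair of arrays as a block, the 95% confidence interval lay within a 2-fold change either way for 50 of 51 members in PAX3-FKHR-ER cells and for 51 of 51 in pK1 cells. It lay within 1.5-fold for 48 and 50 of them. Without the block 42 and 43 members had an interval within 2-fold. The SEs and p-values given for single genes below are from this fit without the block, unless another fit is named. They ignore the pairs and so include the spread between them. A change that misses the threshold is not thereby shown to be absent. The SD between pairs was larger than the SD within pairs for 44 of 51 members (86.3%, against 80.2% of tested genes), with medians of 0.28 and 0.13 on the log2 scale.

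Among S phase genes, the helicase that opens replication origins is the ring of MCM2 to MCM7, which CDC45 and the GINS complex turn on. MCM2 read 2288, 1396 and 1556 in replicates 1 to 3 of PAX3-FKHR-ER cells with 4-OHT, against 2513, 1400 and 1701 without. The pairs differed by -0.13, 0.00 and -0.13, the groups overlapped, and the change was -0.09 (SE 0.30, limma adjusted p = 1.000). MCM3 gave -0.09, MCM4 0.09, MCM5 0.06, MCM6 0.03 and MCM7 0.07 as log2 changes. MCM7 was higher in all 3 pairs, at 1890, 1379 and 1656 with against 1836, 1260 and 1600 without 4-OHT, by 0.04, 0.13 and 0.05. The other probe set of MCM7 gave 0.11, 0.07 and -0.21 in the pairs and a change of -0.01. CDC45 read 230, 208 and 256 with and 238, 257 and 228 without 4-OHT, and the GINS subunit GINS1 read 538, 530 and 668 with and 592, 538 and 652 without; both overlapped. CDC6, which loads the ring onto DNA, gave 0.01.

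The genes of the elongating fork and of nucleotide supply gave changes between -0.17 and 0.09. PCNA, the clamp that holds polymerases on DNA, read 1055, 833 and 674 with 4-OHT, against 1078, 765 and 714 without, a change of 0.00 (SE 0.29). Its loader subunit RFC2 had the lowest S phase value, -0.17 (SE 0.19, limma adjusted p = 1.000), with 237, 290 and 236 with and 314, 273 and 277 without 4-OHT. Replicates 1 and 3 were lower with 4-OHT and replicate 2 was not; the same probe set gave -0.18 in pK1 cells, and the other probe set of RFC2 gave 0.12 in PAX3-FKHR-ER cells. The ribonucleotide reductase subunits RRM2, which is made in S phase, and RRM1 gave 0.09 and -0.04. RRM2 was higher with 4-OHT in all 3 pairs, by 0.10, 0.12 and 0.05, but the change on its other probe set was -0.03. Thymidylate synthase, TYMS, read 2983, 3755 and 3813 with 4-OHT, against 3828, 3051 and 3182 without. It was higher in replicates 2 and 3 and lower in replicate 1, which gave 0.07 over all pairs and 0.28 (unadjusted p = 0.0419, limma adjusted p = 0.390) in the paired fit of replicates 2 and 3. POLE2, a subunit of the leading-strand polymerase, gave -0.04, and CHEK1, the kinase that halts the cycle at stalled forks, gave -0.14, with 190, 190 and 227 with and 220, 159 and 324 without 4-OHT.

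The 3 transcription factors of the circuit did not separate the groups either. E2F1 read 255, 235 and 252 with 4-OHT, against 254, 224 and 258 without, and its pairs differed by 0.01, 0.06 and -0.03. MYBL2 read 346, 581 and 469 with 4-OHT, against 391, 742 and 367 without, and was lower in replicates 1 and 2 and higher in replicate 3. FOXM1 read 1608, 609 and 718 with 4-OHT, against 1938, 447 and 655 without. Replicate 1 lay far above the other 2 in both, and the change was 0.10 (SE 0.68). In the blocked fit the same change had an SE of 0.14.

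**Figure D2:**
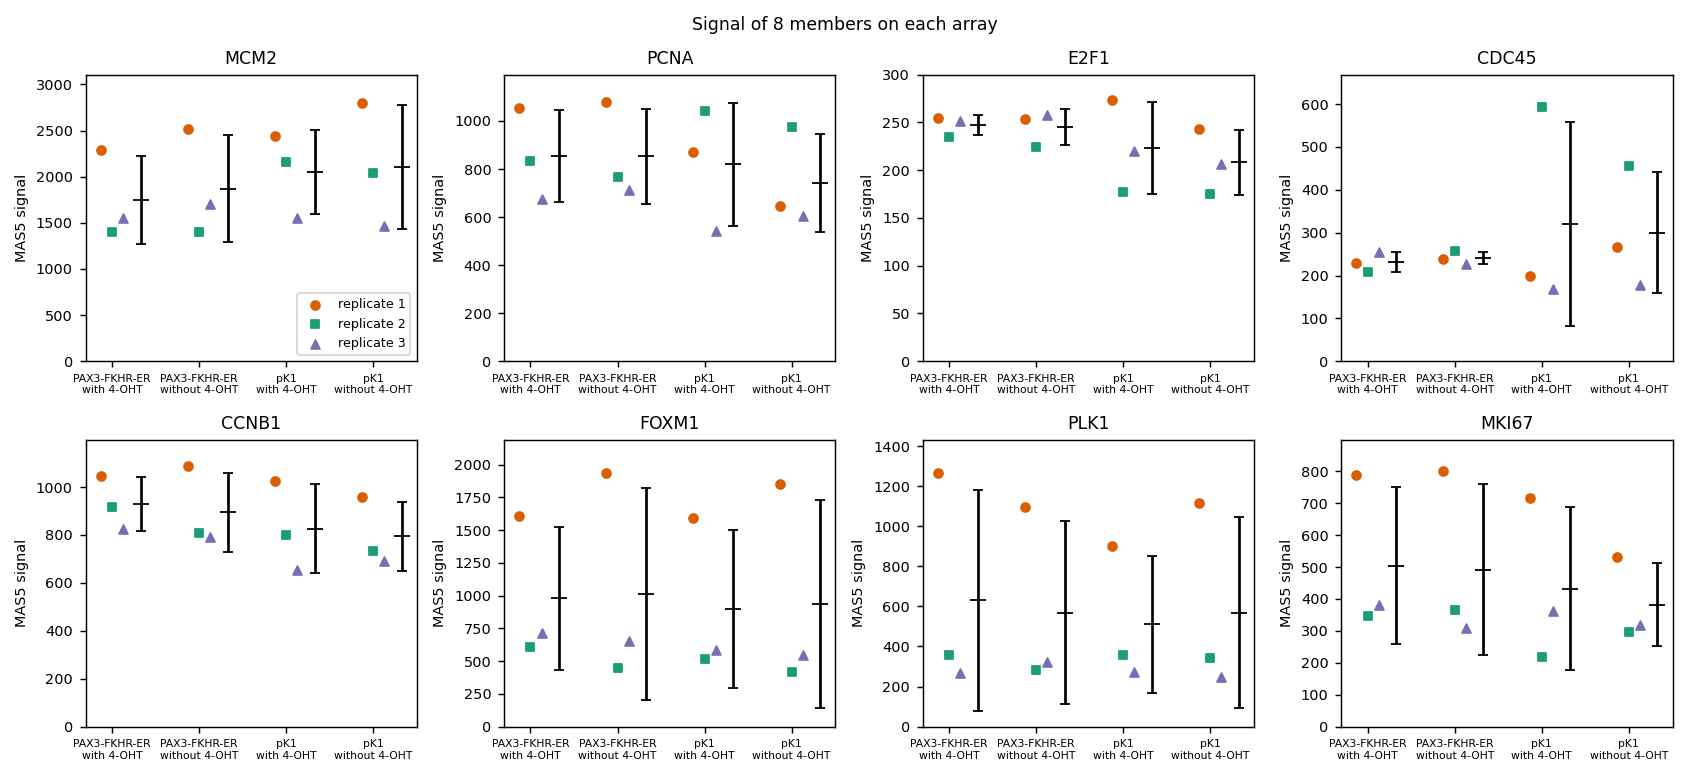
Signal of 8 members, 4 of S phase (top) and 4 of mitosis (bottom), on each of the 12 arrays by group. Points are arrays, marked by replicate number, and the bar beside them is the mean with SD (n = 3); in FOXM1, PLK1 and MKI67 replicate 1 lies above replicates 2 and 3 in all 4 groups, and in CDC45 pK1 replicate 2 lies above all other arrays.

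Among mitotic genes, the groups overlapped for the kinase that drives entry and for its B-type cyclins. CDK1 read 1768, 1205 and 1147 in PAX3-FKHR-ER cells with 4-OHT, against 1884, 979 and 1110 without, a change of 0.08 (SE 0.35). CCNB1, its main partner, read 1047, 916 and 825 with and 1086, 807 and 792 without 4-OHT. CCNB2 had the highest value of the class, 0.26 (SE 0.48, limma adjusted p = 1.000), with 822, 467 and 448 with against 820, 324 and 366 without; replicates 2 and 3 were higher by 0.50 and 0.28, and replicate 1 by less than the last printed digit. In the paired fit of replicates 2 and 3 CCNB2 gave 0.39 (unadjusted p = 0.0147) and did not pass the adjusted threshold. CCNA2, which acts from S phase on, gave 0.06, and the phosphatases that activate CDK1, CDC25B and CDC25C, gave 0.11 and -0.02. The other tested CDC25C probe set, with a mean signal of 43.1, gave 0.43 (SE 0.25, limma unadjusted p = 0.108). It read 45.8, 56.0 and 58.1 with 4-OHT, against 37.9, 40.3 and 28.4 without, and gave -0.09 in pK1 cells.

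The mitotic kinases gave both signs. AURKA, at the spindle poles, read 418, 593 and 427 with 4-OHT, against 546, 581 and 521 without, a change of -0.21 (SE 0.21), while its other probe sets gave 0.04 and -0.19. AURKB, which corrects faulty chromosome attachments, read 241, 429 and 541 with 4-OHT, against 281, 265 and 454 without, a change of 0.23 (SE 0.37). It was higher in replicates 2 and 3, by 0.66 and 0.25, and lower in replicate 1, by -0.20; the paired fit of replicates 2 and 3 gave 0.45 (unadjusted p = 0.00974). PLK1, which acts throughout mitosis, gave 0.08 and PLK4, which starts centriole copying, 0.16. The passenger complex subunit BIRC5 and the spindle factor TPX2, which activates AURKA, both gave 0.00.

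On their chosen probe sets, the spindle, kinetochore and checkpoint genes lay in the same narrow range. The motor KIF11, which pushes spindle poles apart, read 468, 356 and 324 with 4-OHT, against 441, 394 and 389 without. KIF23, a motor of the midzone in cell division with the dimmest probe set of the class, read 97.9, 85.0 and 79.3 with and 83.7, 54.6 and 82.5 without, a change of 0.22 (SE 0.26). KIF20A gave -0.04 and KIF2C 0.07. BUB1, a checkpoint kinase, was higher in all 3 pairs, by 0.20, 0.15 and 0.19, with 288, 508 and 349 with and 248, 455 and 305 without 4-OHT. In pK1 cells it was higher in all 3 pairs too, by 0.07, 0.12 and 0.24. The other tested probe set of BUB1 kept 1 sign in neither construct. Its pairs differed by 0.23, 0.44 and -0.12 in PAX3-FKHR-ER and by 1.24, -1.23 and 0.12 in pK1 cells. The other checkpoint genes were between -0.08 (MAD2L1) and 0.11 (BUB1B), with TTK at 0.00 and BUB3 at -0.02. The kinetochore genes CENPA, CENPE, CENPF, NDC80 and ZWINT gave 0.00, 0.12, -0.06, 0.11 and 0.05. The other tested CENPF probe set, with a mean signal of 138, gave -0.38 (SE 0.49), with pairs at -0.44, -0.42 and -0.29. In pK1 cells it gave 0.27 (SE 0.49), and the difference between the constructs was -0.65 (SE 0.70).

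The genes that end mitosis and the usual proliferation markers gave changes between -0.01 and 0.08. CDC20 and UBE2C, both parts of the machinery that tags cyclins for destruction, gave 0.06 and 0.08, and PTTG1 (securin), which keeps the protease separase in check until sister chromatids part, 0.03. TOP2A, which untangles chromosomes, read 873, 812 and 774 with 4-OHT, against 891, 745 and 837 without. MKI67, the gene of the Ki-67 antigen, read 789, 345 and 380 with 4-OHT, against 801, 366 and 309 without, a change of 0.06 (SE 0.48). The Ki-67 pairs differed by -0.02, -0.08 and 0.28, and the groups overlapped. Its other 3 tested probe sets gave changes of 0.06, 0.03 and 0.02.

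On the chosen probe sets, GPSM2 was the exception in size. It encodes LGN, an adaptor that ties the spindle to the cell cortex and so sets the direction of division. GPSM2 read 82.3, 55.7 and 89.7 in PAX3-FKHR-ER cells with 4-OHT, against 123, 108 and 195 without. All 3 treated arrays lay below all 3 untreated ones, which held for 1 of 51 members (1.96%) against 1.77% of tested genes in that direction and 3.27% in either. In pK1 cells it read 96.2, 97.0 and 130 with and 101, 132 and 128 without 4-OHT, and those groups overlapped. The log2 change was -0.76 in PAX3-FKHR-ER cells (SE 0.25, unadjusted p = 0.0113, limma adjusted p = 1.000) and -0.14 in pK1 cells (SE 0.25). With the pairs as a block the unadjusted p in PAX3-FKHR-ER cells was 6.46e-04 and the adjusted p 0.521. On replicates 2 and 3 alone, paired, the change was -0.89 with an adjusted p of 0.0616, so it did not pass in any of these fits. The difference between the constructs was -0.62 (SE 0.36, unadjusted p = 0.110, limma adjusted p = 1.000). With the block the difference had an SE of 0.22, an unadjusted p of 0.0190 and a limma adjusted p of 0.926. It did not pass in either fit.

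GPSM2 has a second tested probe set, whose mean signal over the 12 arrays was 111, like that of the first. It read 59.8, 119 and 118 with 4-OHT in PAX3-FKHR-ER cells, against 67.7, 162 and 202 without. Every pair was lower with 4-OHT, by -0.14, -0.40 and -0.70, but the groups overlapped, and replicate 1 was dim in all 4 groups. In pK1 cells it was higher in every pair, with 67.3, 107 and 155 with 4-OHT and 56.9, 97.1 and 119 without. Its change was -0.42 (SE 0.41) in PAX3-FKHR-ER and 0.22 (SE 0.41) in pK1 cells. Both probe sets gave almost the same difference between constructs, -0.62 and -0.63. GPSM2 was known beforehand to be among the lower p-values of these data, so its place here is no independent evidence.

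**Figure D3:**
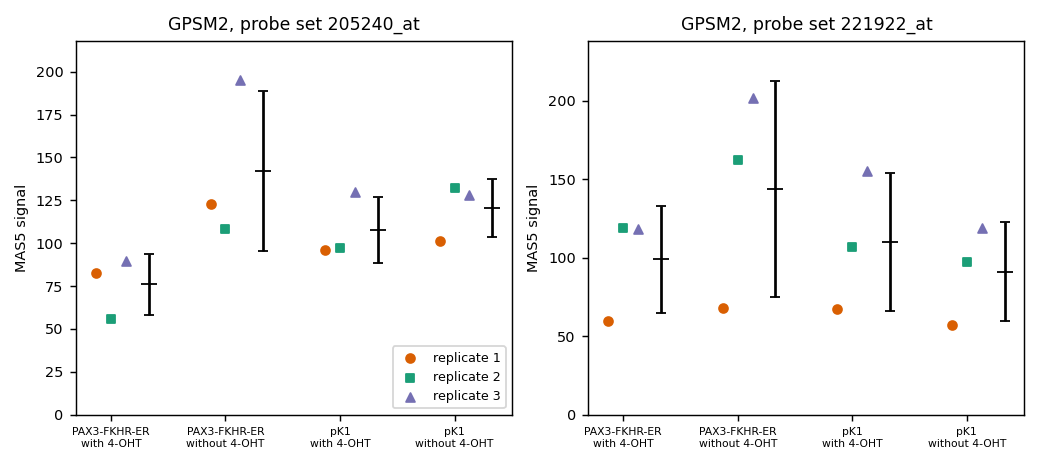
Signal of the 2 tested probe sets of GPSM2 on each array by group, with the mean and SD (n = 3) beside the points. In the left panel the 3 arrays of PAX3-FKHR-ER cells with 4-OHT, at 55.7 to 89.7, lie below the 3 without it, at 108 to 195; in the right panel the groups overlap and replicate 1 is lowest in each.

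Counted in both directions together, changes of 1 sign in every pair were not more common among members than among all tested genes. In PAX3-FKHR-ER cells 9 of 51 members (17.6%) kept 1 sign in all 3 pairs, against 28.3% of tested genes. Of these, however small the difference in a pair, 7 were higher with 4-OHT (MCM7, RRM2, CCNB2, CDC25B, KIF2C, ZWINT and BUB1), 13.7% of members against 12.8% of tested genes. Lower were 2 (MCM2 and GPSM2), 3.92% of members against 15.6% of tested genes. In pK1 cells it was 12 of 51 (23.5%), against 30.4% of tested genes. Of these, 10 were higher (19.6% of members, against 12.7% of tested genes) and 2 lower (3.92%, against 17.7%). The chosen probe sets of CCNB2, CDC25B, ZWINT and BUB1 were higher in all 3 pairs of both constructs. On the chosen probe sets, no member had opposite signs in all pairs of the 2 constructs, which 242 of 8124 tested genes (2.98%) had. Other probe sets of some members had them, among them GPSM2 and CDK1, lower in every PAX3-FKHR-ER pair and higher in every pK1 pair. Of 22 members with several tested probe sets, the probe sets gave the same sign in PAX3-FKHR-ER cells for 7.

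In pK1 cells, which carry no fusion, the class medians with 4-OHT also lay near 0. The median change was 0.01 over S phase and 0.03 over mitosis members, beside -0.03 over all tested genes. Of 51 members 0 passed the adjusted threshold in limma and 0 had an unadjusted p under 0.05, as did 0% and 0.540% of tested probe sets. MCM6 read 1589, 1389 and 1399 with 4-OHT, against 1168, 1369 and 1295 without, and UBE2C read 1680, 1735 and 1791 with, against 1996, 1935 and 1876 without. These were the only members whose pK1 groups did not overlap, 3.92% against 4.41% of tested genes, of which 0.886% were higher and 3.52% lower with 4-OHT. Their changes were 0.19 (SE 0.17) and -0.16 (SE 0.13). NDC80, which anchors microtubules at the kinetochore, had the highest value, 0.36 (SE 0.39, and 0.14 with the block), and CENPA, the centromeric histone, the lowest, -0.26 (SE 0.21). The difference of the 4-OHT changes, PAX3-FKHR-ER minus pK1, had medians of -0.06 over S phase and 0.01 over mitosis members. By limma no member passed there and no member had an unadjusted p under 0.05, against 0% and 0.293% of tested probe sets. With the block 0 members passed in either contrast, but 1 of 51 (1.96%) had an unadjusted p under 0.05 in each. In pK1 cells it was NDC80 (unadjusted p = 0.0269, limma adjusted p = 0.711), against 6.87% of probe sets, and in the difference GPSM2, against 4.76%.

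The fusion construct itself was compared with the vector at the same 4-OHT. Without 4-OHT the median log2 difference, PAX3-FKHR-ER minus pK1, was 0.10 over S phase members and 0.12 over mitosis members, and 27 of 33 mitosis members were above 0, beside a median of -0.02 and 46.6% of all tested genes. With 4-OHT the medians were 0.04 and 0.14, and 26 of 33 mitosis members were above 0. No member passed the adjusted threshold in limma in either comparison and none had an unadjusted p under 0.05, while 0% and 2.08% of probe sets without and 0% and 2.0% with 4-OHT did. With the replicate number as a block none passed either, and unadjusted p-values under 0.05 were found for 0 members without 4-OHT, against 7.36% of probe sets. With 4-OHT they were found for 2 members (3.92%), UBE2C and GPSM2, against 6.98%. The mitosis difference was not the same in each number. In replicates 1, 2 and 3 the class median was 0.11, -0.07 and 0.24 without 4-OHT, and 4-OHT arrays gave 0.09, 0.13 and 0.24. Of 51 members 14 (27.5%) kept 1 sign in all 3 numbers without and 18 (35.3%) with 4-OHT, against 26.0% and 22.1% of tested genes. Without 4-OHT 13 of the 14 were higher in PAX3-FKHR-ER cells (25.5% of members, against 11.4% of tested genes) and 1 was lower (1.96%, against 14.7%). With 4-OHT 13 were higher (25.5%, against 11.4%) and 5 lower (9.80%, against 10.7%).

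The smallest p of a member between the constructs was that of UBE2C with 4-OHT, where PAX3-FKHR-ER cells read 2000, 2117 and 2232, against 1680, 1735 and 1791 in pK1 cells. These groups did not overlap, which held for 3 members with 4-OHT, KIF2C and UBE2C higher and GPSM2 lower. That is 5.88% against 5.16% of tested genes, of which 2.95% were higher and 2.20% lower in PAX3-FKHR-ER cells. The difference was 0.28 (SE 0.13, unadjusted p = 0.0539, limma adjusted p = 1.000), with an unadjusted p of 0.0231 and an adjusted p of 0.704 under the block. Without 4-OHT it was 0.05. BUB1B, the checkpoint protein BUBR1, was the smallest without 4-OHT, with 454, 547 and 473 in PAX3-FKHR-ER cells against 423, 344 and 319 in pK1 cells, a difference of 0.43 (SE 0.22, unadjusted p = 0.0803). With 4-OHT BUB1B read 453, 546 and 606 in PAX3-FKHR-ER cells against 549, 347 and 361 in pK1 cells, and replicate 1 ran the other way. In the paired fit of replicates 2 and 3 the BUB1B difference was 0.60 without 4-OHT (unadjusted p = 0.0147, limma adjusted p = 0.390). With 4-OHT it was 0.68 in that fit (unadjusted p = 0.00820, limma adjusted p = 0.221). MAD2L1 read 538, 677 and 588 in PAX3-FKHR-ER cells against 498, 513 and 537 in pK1 cells without 4-OHT, and CENPA read 246, 227 and 181 against 271, 255 and 305. BUB1B, MAD2L1 and CENPA were the 3 members without overlap there, 5.88% against 5.97% of tested genes, of which 2.62% were higher and 3.35% lower in PAX3-FKHR-ER cells.

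MCM3 showed the lowest S phase values between constructs, -0.33 without and -0.43 with 4-OHT. It read 885, 541 and 659 in PAX3-FKHR-ER cells against 729, 1196 and 910 in pK1 cells with 4-OHT. Replicates 2 and 3 were lower and replicate 1 was higher, and the paired fit of replicates 2 and 3 gave -0.79 (unadjusted p = 0.0126, limma adjusted p = 0.247). The pK1 replicate 2 arrays were high for MCM3, MCM5 and CDC45. CDC45 read 594 with and 455 without 4-OHT there, against 168 to 266 on the other 4 pK1 arrays and 208 to 257 on the 6 PAX3-FKHR-ER arrays. TYMS read 2983, 3755 and 3813 in PAX3-FKHR-ER cells against 4138, 2818 and 2184 in pK1 cells with 4-OHT, with replicate 1 again of the other sign. The paired fit of replicates 2 and 3 gave TYMS 0.61 (unadjusted p = 0.00848, limma adjusted p = 0.221).

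Mean class levels per array showed where the construct difference sat. Each gene's log2 signal was set against its own mean over the 12 arrays and averaged over the class. The pK1 replicate 3 arrays were the lowest for both classes, at -0.14 with and -0.19 without 4-OHT in S phase and at -0.18 and -0.24 in mitosis. The replicate 1 arrays were the highest for mitosis, at 0.22 and 0.25 in PAX3-FKHR-ER and 0.16 and 0.13 in pK1 cells with and without 4-OHT. Arrays of the same construct and number lay close together with and without 4-OHT, and the widest gap was that of PAX3-FKHR-ER replicate 2 in mitosis, at 0.00 with and -0.12 without. All tested genes together stayed within -0.04 and 0.04.

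**Figure D4:**
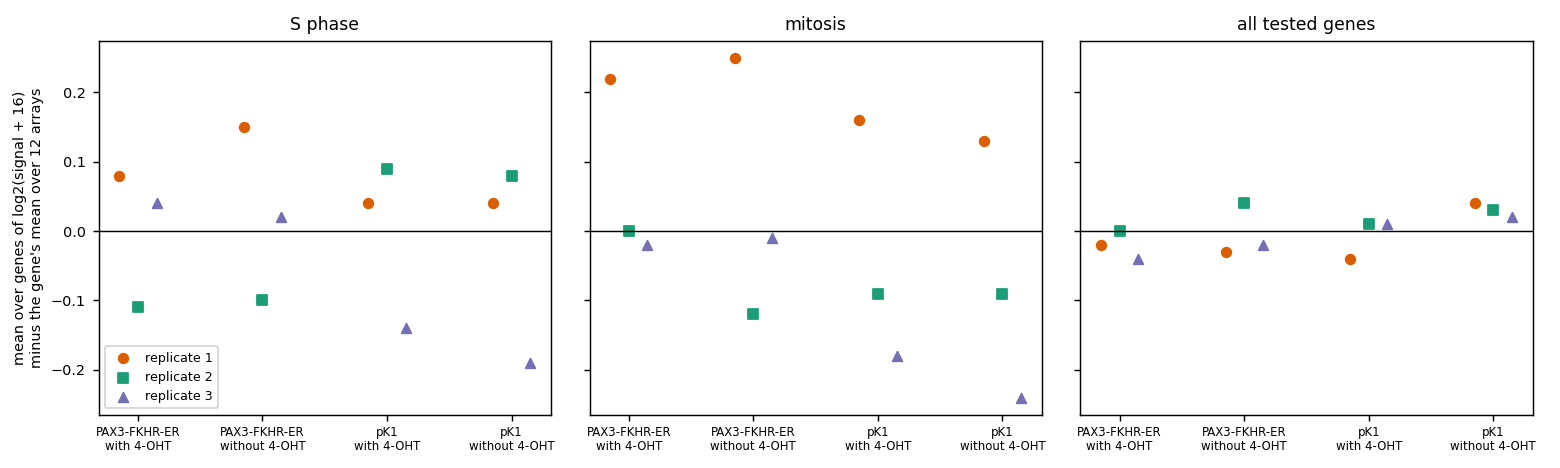
Mean over genes of log2(signal + 16) minus each gene's mean over the 12 arrays, for the S phase members, the mitosis members and all 8124 tested genes, by group and replicate number. Points of the same number and construct lie together with and without 4-OHT; replicate 1 is highest for mitosis and pK1 replicate 3 lowest for both classes.

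The largest difference among the members lay between replicate 1 and the other arrays, and more of the mitosis than of the S phase members took part in it. PLK1 read 904 to 1267 on the 4 arrays of replicate 1 and 249 to 357 on the other 8, a difference of 1.79 in mean log2 signal. FOXM1 read 1593 to 1938 against 414 to 718, a difference of 1.63. CDC25B followed at 1.48 and CENPF at 1.31. In all, 14 of 33 mitosis members did not overlap between replicate 1 and the rest, 11 higher and 3 lower, which is 42.4% against 21.8% of tested genes, 10.8% higher and 11.0% lower. Of 18 S phase members it was 2, MCM2 and MCM4, which is 11.1%. A difference beyond 0.5 on the log2 scale either way was found for 39.4% of mitosis and 11.1% of S phase members, against 33.3% of tested genes. Among the further genes of the same programmes the share without overlap was 26.9% of 67 mitosis genes, 15 higher and 3 lower, and 20.8% of 53 S phase genes, 6 higher and 5 lower. Beyond 0.5 either way it was 34.3% and 24.5%, so that mitosis share over these genes lay near that of all tested genes. By direction it did not: without overlap, 22.4% of these mitosis genes were higher on replicate 1 and 4.48% lower, against 10.8% and 11.0% of tested genes. The difference between the classes was not tested.

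This difference did not run through the whole mitotic class. The members higher on replicate 1 were FOXM1, CCNB1, CCNB2, CDK1, CDC25B, PLK1, TPX2, CENPF, NDC80, PTTG1 and MKI67, with differences of 0.40 to 1.79. The members lower on it were CDC25C at 95.1 to 134 against 136 to 253, BUB1 at 248 to 294 against 305 to 508, and BUB3 at 1416 to 1612 against 1791 to 2411. AURKB lay at 219 to 307 on replicate 1 and 265 to 541 on the rest, an overlap, with a difference of -0.70. UBE2C, CENPA, KIF20A and MAD2L1 differed by -0.01, 0.05, 0.05 and -0.07. The median over the mitosis class was only 0.11. Of the 22 members with several tested probe sets, the sign of this difference was the same on all of them for 15 and not for 7 (RFC2, RRM1, CCNA2, AURKA, BIRC5, KIF2C and TOP2A), whose groups overlapped on the chosen probe set. The 7 members with several probe sets and no overlap on the chosen one kept their sign on each, but not always the size. MKI67 gave 1.09, and 0.60, 1.29 and 0.83 by its other 3 sets, CDK1 gave 0.75, and 0.71 and 0.81, and CENPF gave 1.31 and 1.13 by its other tested set. MCM4 gave 1.15, and 0.45, 0.47 and 1.16. Replicate 1 also has the low poly-A control signal, so its sample preparation and the state of its cells cannot be told apart here.

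**Figure D5:**
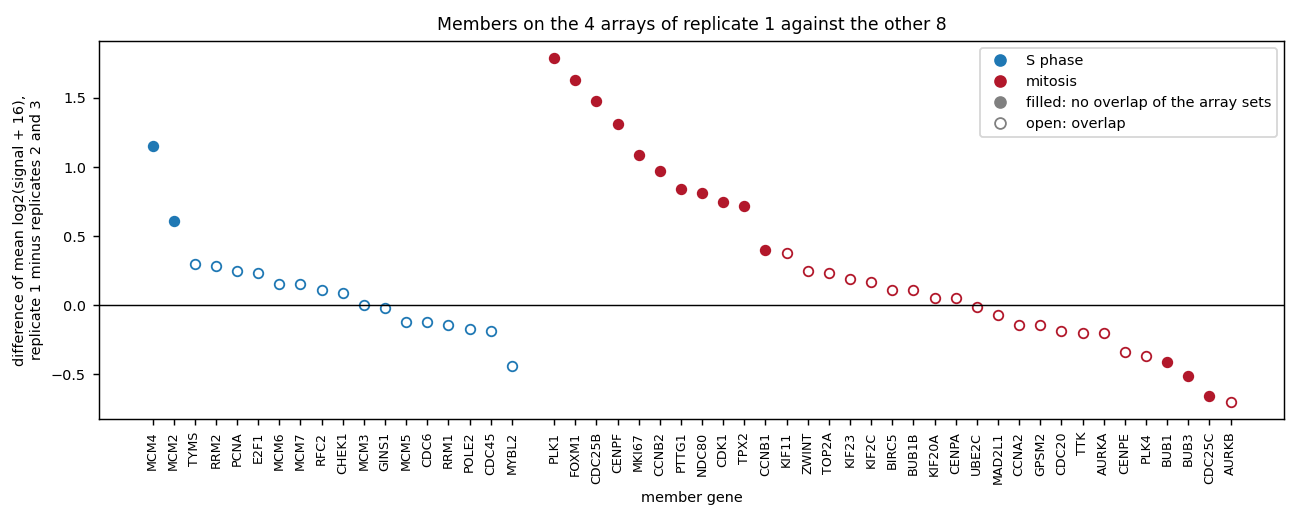
Difference of mean log2(signal + 16), the 4 arrays of replicate 1 minus the 8 arrays of replicates 2 and 3, for each S phase member (blue) and mitosis member (red). Filled points mark members for which the 2 sets of arrays do not overlap; PLK1 at 1.79 and FOXM1 at 1.63 are the highest and AURKB at -0.70 the lowest.

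The members also differed in how widely each varied. RRM1 was the steadiest of S phase, with a highest signal 1.32 times its lowest after adding 16 to both, and UBE2C of mitosis, at 1.33 times. CDC45 and PLK1 varied most, 3.31 and 4.85 times. The median range was 1.84 times in S phase, 1.86 times in mitosis and 2.22 times over all tested genes.

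Genes of the same 2 programmes outside the 51 were read in the same way. Of 53 other tested S phase genes and 67 other tested mitosis genes, 0 passed the adjusted threshold in limma for 4-OHT in PAX3-FKHR-ER cells, and 0 and 0 had an unadjusted p under 0.05. Their median changes were -0.06 and 0.00. In the paired fit of replicates 2 and 3, 186 probe sets (1.40%) passed for 4-OHT in PAX3-FKHR-ER cells, among them 0 of 51 members and 1 other S phase gene. The S phase gene was CCNE1, cyclin E1, which starts S phase with CDK2. It rose by 0.82 on the log2 scale (limma adjusted p = 0.0482) in that fit. Without the block, limma on the same arrays gave CCNE1 an unadjusted p of 0.0421, and it did not pass the adjusted threshold. CCNE1 read 452, 531 and 380 with 4-OHT, against 420, 309 and 198 without, in PAX3-FKHR-ER cells, and 475, 375 and 216 with against 351, 273 and 234 without in pK1 cells. Over all 12 arrays its change was 0.58 (SE 0.33, limma adjusted p = 1.000), and the difference from pK1 in the paired fit of replicates 2 and 3 was 0.66 (unadjusted p = 0.0168, limma adjusted p = 0.386). Unadjusted p-values under 0.05 were found in that fit for 4 members (TYMS, CCNB2, AURKB and GPSM2), which is 7.84% of members against 11.8% of probe sets. In the other contrasts of that fit 0 members passed, against 0% of probe sets for 4-OHT in pK1 cells, 0.0525% for the difference, and 0.00750% without and 0.158% with 4-OHT between constructs.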

How the data were processed

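RNA of 12 samples was measured on Affymetrix arrays, 1 each. Per the submitters' processing notes the authors used GCOS and MAS5, with no version given there, and deposited a linear intensity for each probe set. The deposited intensity table held 22283 probe sets; 68 controls were left out. Values were used as log2(signal + 16), the scale of every change, which understates changes between low signals. Leaving out the dimmest 40% by mean left 13329 probe sets. Group means of all 12 arrays were fitted with limma 3.58.1 in R 4.3.3 (lmFit, eBayes with intensity trend) for 5 contrasts, two-sided, Benjamini-Hochberg adjusted over all tested probe sets at 0.05. Tables were made with pandas 2.3.3 and figures with matplotlib 3.10.9 in Python 3.11.15. The script was tested on simulated data.

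The members, the further gene lists, the fit and the alternatives were chosen with earlier results of these data known, among them the fit of replicates 2 and 3. Named members were, for 4-OHT in PAX3-FKHR-ER cells, the 4 of each class each way with the smallest p, for other contrasts the 2, and a standing list of 12 (MKI67, PCNA, MCM2, E2F1, MYBL2, FOXM1, CDK1, CCNB1, TOP2A, PLK1, AURKA and GPSM2), plus the brightest and dimmest of each class. The other members are given by value for completeness; those named for replicate 1, for signs in all pairs and for probe set agreement were chosen after their values were seen.

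Same-numbered arrays deviated together from their group means: r over all tested probe sets was 0.85, 0.70 and 0.71 between treatments in PAX3-FKHR-ER cells, 0.79, 0.79 and 0.82 in pK1 cells, and 0.15 to 0.69 between constructs. The numbers were therefore taken as pairs in the block fit and in the differences within pairs. The fit of group means ignored the pairs. Its SEs and p-values are the ones printed unless the block or the paired fit is named. The block fit is given for only some values. With 3 arrays a group, their number limits the precision.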

Additional observations from a re-analysis of the deposited data

How the results depend on the processing

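The number of members past the threshold was 0 in all 5 contrasts and under all 119 alternative values: other amounts added before log2, other filters, quantile normalization, equal medians, no intensity trend, other probe set rules, fits of fewer groups, the replicate block, replicates 2 and 3 with and without the block, and each of the 12 arrays omitted in turn. In the 12-array fits with and without the block, 0% of all 13329 tested probe sets passed in each contrast. A count of 0 members there is therefore no result about the members. The replicate block changed no call of a member at the adjusted threshold. For other genes it did on replicates 2 and 3. For 4-OHT in PAX3-FKHR-ER cells, 0 of 8124 tested genes passed there without the block and 121 with it. Leaving out the lowest 60% of probe sets removed KIF23, so 50 members were tested there. For 4-OHT in pK1 cells the S phase median, 0.01, was -0.03 with quantile normalization, 0.11 with equal medians and 0.05 on replicates 2 and 3 with and without the replicate block, and the mitosis median, 0.03, was 0.13 with equal medians. The S phase median of the difference, -0.06, was -0.14 with equal medians. Leaving out 1 array gave S phase medians of -0.07 to 0.03 (PAX3-FKHR-ER), -0.05 to 0.10 (pK1) and -0.13 to 0.05 (difference), and mitosis medians of -0.05 to 0.09, -0.05 to 0.09 and -0.12 to 0.12. Between constructs the mitosis median was 0.02 to 0.22 without and 0.06 to 0.27 with 4-OHT, the S phase median 0.01 to 0.13 and -0.07 to 0.04. The causes were not tested. Of 4160 alternative values of 35 named members, 317 differed in sign from the 12-array value and 0 passed the threshold. GPSM2 stayed between -0.92 and -0.53 over 24 alternatives, with adjusted p-values of 0.0616 to 1.00. The paired fit of replicates 2 and 3 leaves 2 residual degrees of freedom for 4-OHT, so its spread is largely borrowed across probe sets.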
